A study of Mus musculus with 8 samples.

Results

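Oxidative phosphorylation (OXPHOS) genes were followed in brain endothelial cells (BECs) of mice 24 h after experimental subarachnoid haemorrhage (SAH) or a sham procedure. They were chosen by symbol alone, as every gene whose name begins with Ndufa, Ndufb, Ndufc, Ndufs, Ndufv, Uqcr, Cox4 to Cox8 or Atp5, together with Sdha, Sdhb, Sdhc and Sdhd. Of 22180 genes with a probe set of their own, 89 met this rule. Each was represented by its probe set with the highest mean over all arrays. The name rule also takes in 8 complex I assembly factors, which help to build the enzyme without staying in it, and 2 annotated pseudogenes, Atp5c1-ps and Uqcrh-ps1. A further 9 symbols that meet the rule, among them Cox6c and Uqcr10, share their probe sets with other genes and were not counted as members.

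All animals were male FVB/NJ mice aged 12 weeks. SAH mice received 80 μL of blood from a littermate in front of the optic chiasm through a burr hole, and sham mice had the same needle inserted with no blood. CD45-CD31+ cells were isolated with magnetic beads from the left hemisphere after removal of meninges, cerebellum and brainstem. No gene was deleted, and the methods describe anaesthesia and the analgesic buprenorphine for the surgery of both groups. The amplified RNA of 1 animal was read on 1 Affymetrix Mouse Gene 2.0 ST array, with 4 arrays for SAH and 4 for sham. The spread between arrays therefore includes that between animals and that of cell isolation and RNA amplification. The sham arm controls for the needle and the burr hole, but not for a volume injected, and the cells are those that survived dissociation.

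OXPHOS is the route by which mitochondria turn the electrons of fuel into ATP. Complexes I and II pass electrons to ubiquinone, complex III hands them to cytochrome c and complex IV to oxygen, and complex V, the ATP synthase, spends the proton gradient built on the way. Most subunits are encoded in the nucleus and a small core in mitochondrial DNA, so both genomes must be read for the enzymes to be built. BECs at the blood-brain barrier are known for a high content of mitochondria.

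As a group, the OXPHOS subunits differed little between SAH and sham BECs, and 2 assembly factors of complex I, Ndufaf3 and Ndufaf7, were lower after SAH. The log2 change, the SAH mean minus the sham mean of the log2 intensities, had a median of 0.00295 over the 89 genes, beside -0.0155 over all 25341 probe sets tested. The changes lay between -0.63 and 0.45, with 45 above 0 and 44 below, while 46.4% of all tested probe sets had a higher mean after SAH. With limma and Benjamini-Hochberg adjustment over all tested probe sets, 0 of 89 members rose, where 1.90% of all tested probe sets did, and 2 fell, where 1.28% did (3.18% in either direction). At an unadjusted p under 0.05, 4 members differed, against 14.1% of all tested probe sets. The intensities of the 4 SAH arrays and the 4 sham arrays did not overlap for 2 members, again Ndufaf3 and Ndufaf7, against 8.99% of all tested probe sets.

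The limits on the 87 uncalled members are set by the intervals of their changes, not by their p-values. The 95% interval of the change lay wholly within 1.5-fold in either direction for 76 of 89 members (85.4%), against 79.7% of all tested probe sets and 71.8% of the 14041 tested probe sets brighter than the lowest array median. A change of more than 1.5-fold was measured for 1 member, Ndufaf3, and for 6.42% of those brighter probe sets. The SD of the log2 changes was 0.178 over the members and 0.351 over the brighter probe sets. The standard error (SE) of a member's change had a median of 0.123, so changes much smaller than 1.5-fold were often not detectable with 4 animals per group. In 10 members the mean intensity lay below every array's median, among them Cox7c, Atp5j2 and Atp5g1, and an absent change there is less informative.

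**Figure D1:**
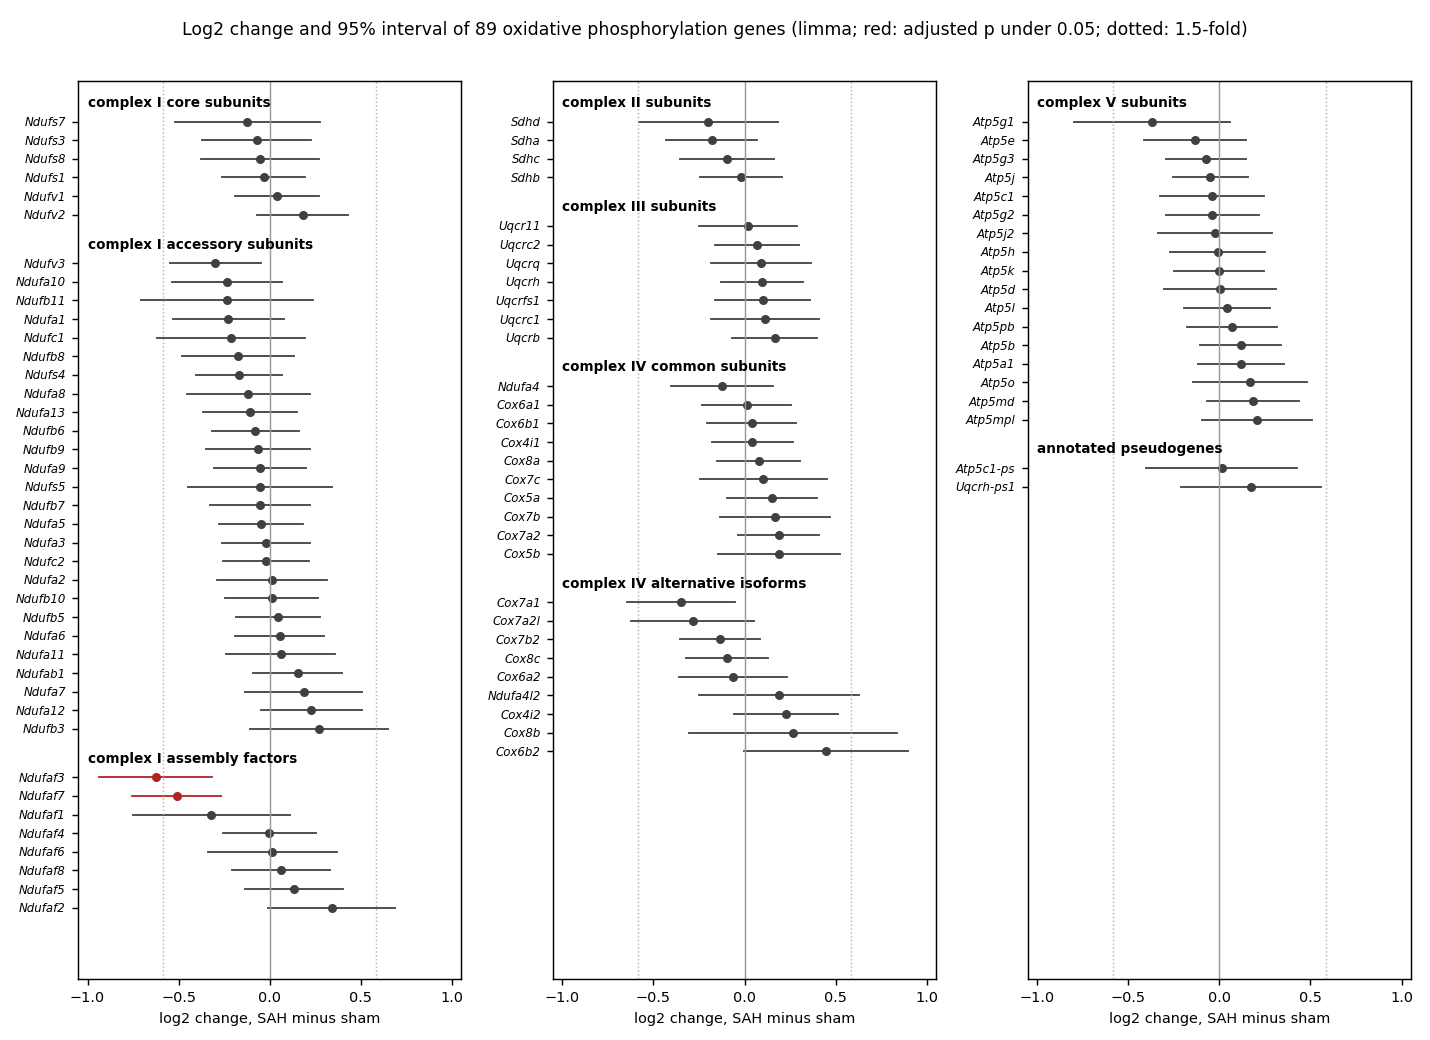
Log2 change (SAH minus sham, x axis) of the 89 OXPHOS genes, grouped by complex, with points for the change and lines for its 95% interval from limma with 4 arrays per group; dotted lines mark 1.5-fold. The intervals of Ndufaf3 and Ndufaf7, in red, lie wholly below 0, while most subunits of complexes I to V sit close to 0 with intervals inside the dotted lines.

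**Figure D2:**
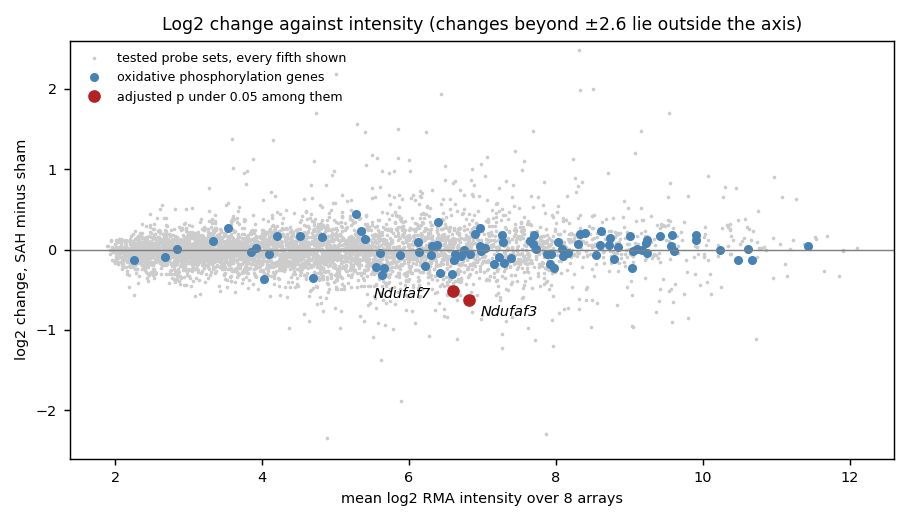
Log2 change (SAH minus sham, y axis) against the mean log2 intensity over 8 arrays (x axis) for the OXPHOS genes in blue and red and for a regular sample of the tested probe sets in grey. The members lie between mean intensities of 2.25 and 11.4, and their changes have an SD of 0.178 against 0.351 for tested probe sets above the lowest array median.

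The intensities are those of all cells in an isolate, in which fewer cells of a type and less RNA per cell cannot be told apart. The endothelial genes Pecam1, Cdh5 and Cldn5 were bright on all arrays, and 0 of 12 endothelial markers lay below the array medians. Of the 12, Tek and Kdr fell, by 0.99 and 0.78, and the changes ran up to 0.52. The 15 microglia and macrophage markers all had a higher mean after SAH, although CD45+ cells had been depleted, and 4 passed the test (Ctss, Tyrobp, Fcer1g and C1qc). Their summed linear intensity was 1080 to 1510 on SAH arrays and 731 to 882 on sham arrays. The sum over 12 neuronal markers was lower after SAH, at 322 to 367 against 416 to 565, with Stmn2 (-1.43) the gene that passed the test, while 7 of the 12 had a higher mean after SAH and the median change was 0.02. The sum over 10 neutrophil markers was 184 to 418 against 161 to 170, and S100a8 and S100a9 rose by 2.07 and 1.21. Of these 10, 4 had a lower mean after SAH, 6 lay below the array medians and the median change was 0.12. Of 9 astrocyte markers, 8 had a higher mean after SAH and 0 passed the test, with sums of 614 to 917 against 456 to 663. Of 7 ependymal and choroid plexus markers, 4 had a higher and 3 a lower mean after SAH, and 0 passed the test. Their sums were 1520 to 3130 on SAH arrays and 1090 to 1890 on sham arrays, and 4 lay below the array medians. The sums over 9 oligodendrocyte markers were 167 to 179 against 164 to 190, and 0 passed the test. The part of these cells in the levels of the OXPHOS genes was not tested.

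Complex I takes electrons from NADH and is the largest of these enzymes. Its core subunits carry the flavin and the iron-sulphur clusters, and 0 of the 6 nuclear core subunits measured passed the test. Their changes ran from -0.12 for Ndufs7, which holds a cluster next to the ubiquinone site, to 0.18 for Ndufv2 in the NADH-binding arm. All 6 intervals lay within 1.5-fold. The 26 accessory subunits, which surround the core, had a median change of -0.05, with 9 above 0 and 17 below, and 0 passed the test. The split was 13 and 13 without SAH replicate 3 (median -0.00065) or without sham replicate 2 (-0.02), and the median was -0.10 without SAH replicate 4.

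The accessory subunit with the lowest change was Ndufv3, a small subunit of the NADH-binding module. Its log2 intensities were 6.38, 6.44, 6.38 and 6.58 on the SAH arrays and 6.81, 6.96, 6.65 and 6.55 on the sham arrays. The groups overlapped, since the highest SAH array exceeded the lowest sham array. The change was -0.30 (SE 0.113, n = 4 per group) and missed the threshold with limma (adjusted p = 0.241). Ndufa10 (-0.23), Ndufb11 (-0.23), which sits in the membrane arm, and Ndufa1 (-0.23), an X-linked subunit of that arm, had adjusted p-values in limma of 0.510, 0.711 and 0.535.

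At the other end stood Ndufb3 of the membrane arm, with a change of 0.27 (adjusted p = 0.550 in limma), and Ndufa12 with 0.23 (adjusted p = 0.466). Ndufb3 rested on an uneven SAH group, with 7.23, 7.11, 7.51 and 6.57 on the SAH arrays against 6.70, 6.82, 6.84 and 6.98 on the sham arrays. Its lowest value of all 8 arrays was on a SAH array. A second probe set of Ndufa12 gave 0.21, and a second probe set of Ndufa8 gave -0.12 where the first also gave -0.12. None of the 9 members with a second probe set passed the test on it.

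The 2 members that passed the test were both assembly factors of complex I. Complex I is put together from modules by dedicated proteins that are released before the enzyme is finished. Of the 8 such factors in the set, 2 fell, where 1.28% of all tested probe sets did. The 8 changes spread from -0.63 to 0.34 around a median of 0.0064. In a list of 40 other assembly factors, outside the name rule, 0 passed the test, against 3.18% of all tested probe sets.

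Ndufaf3 works with Ndufaf4 early in assembly, on the module that binds ubiquinone. Its log2 intensities were 6.48, 6.70, 6.44 and 6.40 on the SAH arrays, and 7.22, 7.45, 7.07 and 6.79 on the sham arrays. Every SAH array lay below every sham array, and SAH replicate 2 came closest to sham replicate 4. SAH BECs had a mean of 6.51 ± 0.134 and sham BECs of 7.13 ± 0.276 (SD, n = 4 each), a change of -0.63 (SE 0.142, 95% interval -0.94 to -0.32, limma adjusted p = 0.0372). This put Ndufaf3 at 64.8% of its sham level, with an interval from 52.2% to 80.3%. Its partner Ndufaf4 had a change of -0.0014 (95% interval -0.26 to 0.25).

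Ndufaf7 is a methyltransferase that modifies an arginine of a core subunit of the same module. Its log2 intensities were 6.40, 6.48, 6.38 and 6.12 on the SAH arrays and 6.82, 6.75, 7.004 and 6.84 on the sham arrays. The groups were separate, and SAH replicate 4 was the lowest array. SAH BECs had a mean of 6.34 ± 0.158 and sham BECs of 6.85 ± 0.109 (SD, n = 4 each), a change of -0.51 (SE 0.111, 95% interval -0.75 to -0.27, limma adjusted p = 0.0319). The SAH level was 70.2% of sham, with an interval from 59.3% to 83.1%.

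Both calls lay near the threshold and were lost in most fits that left out an array. Of the 8 fits that left out an array, Ndufaf3 passed the test in 2 (when SAH replicate 2 or sham replicate 4 was dropped) and Ndufaf7 in 1 (without SAH replicate 2). Leaving out any other array ended the calls. The calls over all tested probe sets also became fewer in these fits, from 807 to between 471 and 684. Over all 8 fits, those that passed included, limma adjusted p-values ran from 0.0161 to 0.105 for Ndufaf3 and from 0.0379 to 0.0904 for Ndufaf7. The changes stayed between -0.74 and -0.52 for Ndufaf3 and between -0.56 and -0.44 for Ndufaf7 in all 8 fits. By the test that the methods name, as run here, 0 members passed. It called 50 of the 25341 tested probe sets higher and 36 lower. The paper reports more genes than that as significant. The published analysis was thus not reproduced, and this fit does not show whether the published calls include members.

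The other assembly factors did not pass the test. Ndufaf1, which belongs to the assembly complex for the membrane arm, had 5.30, 5.34, 5.84 and 5.42 on the SAH arrays and 5.64, 5.29, 6.12 and 6.13 on the sham arrays. The lowest of the 8 values was on a sham array, and the change of -0.32 had a limma adjusted p of 0.530. Ndufaf2, a late assembly factor and a paralogue of the subunit Ndufa12, had 6.77, 6.67, 6.22 and 6.60 on the SAH arrays and 6.06, 6.51, 5.93 and 6.40 on the sham arrays. It gave the highest change among the factors, 0.34, with an interval from -0.0087 to 0.69 and a limma adjusted p of 0.369. Ndufaf5, which hydroxylates an arginine of Ndufs7, had a change of 0.13, and its partner Ndufaf8 had 0.06.

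**Figure D3:**
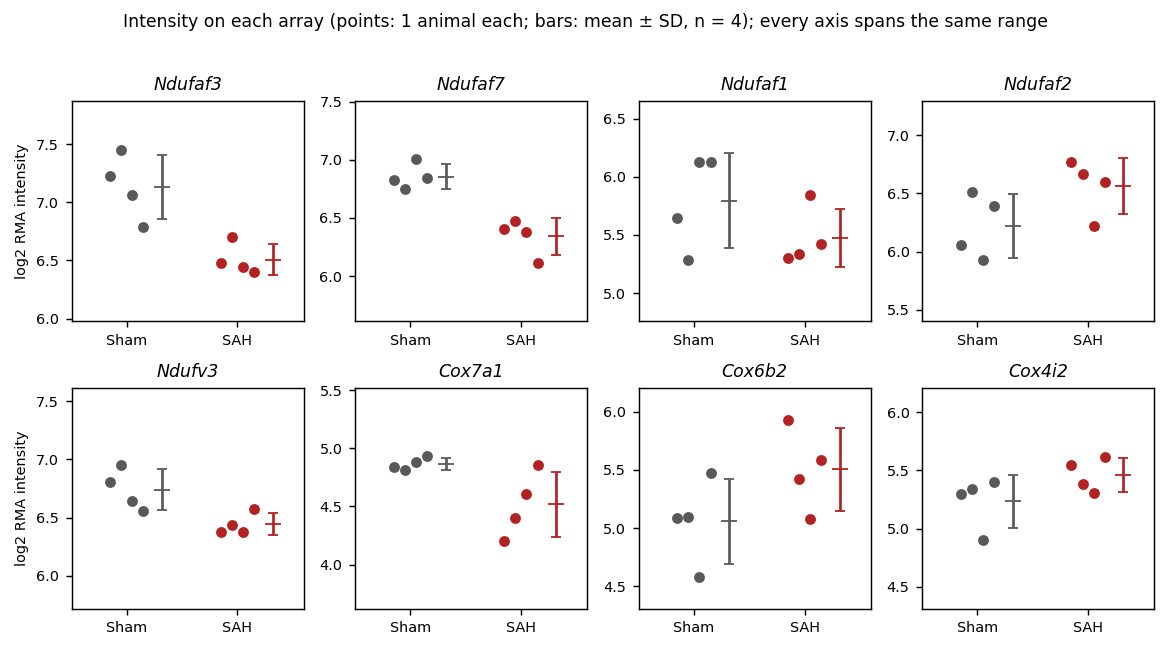
Log2 RMA intensity (y axis, the same span in every panel) of 8 OXPHOS genes on each of the 4 sham arrays (grey) and 4 SAH arrays (red), with bars for mean ± SD. Ndufaf3 and Ndufaf7 separate the groups, while Ndufaf1, Ndufaf2, Ndufv3, Cox7a1, Cox6b2 and Cox4i2 overlap.

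Genes beside Ndufaf3 and Ndufaf7 were examined because neighbours can share regulatory sequence. Within 2000 bases, Dalrd3, which lies next to Ndufaf3, had a change of -0.13 (limma adjusted p = 0.791), and the microRNA genes Mir191 and Mir425 had -0.20 and -0.24 (limma adjusted p = 0.698 and 0.630). Prkd3, beside Ndufaf7, had 0.01 (limma adjusted p = 0.977). None of these neighbours passed the test. Many promoters of OXPHOS genes carry sites of NRF1, GABPA (also called NRF2) or YY1, factors known to set the nuclear share of the respiratory chain. The 300 bases around the start of both called genes, most of them upstream, are shown because these genes passed the test. Neither window holds any of the core letters searched, CGCATGCG for NRF1, CCGGAAGT for GABPA and AAGATGGC for YY1, on either strand. Only exact letters were searched, so a missing match does not show that a site is absent. The windows are from RefSeq, build GRCm38.p6. Ndufaf3 lies at chr9:108567387-108567686 on the minus strand and Ndufaf7 at chr17:78936885-78937184 on the plus strand.
Ndufaf3: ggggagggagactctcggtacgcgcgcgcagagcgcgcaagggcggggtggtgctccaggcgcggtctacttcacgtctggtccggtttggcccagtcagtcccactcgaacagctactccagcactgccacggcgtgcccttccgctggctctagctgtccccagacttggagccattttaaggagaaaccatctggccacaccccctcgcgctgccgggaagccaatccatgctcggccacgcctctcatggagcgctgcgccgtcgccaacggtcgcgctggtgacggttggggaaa
Ndufaf7: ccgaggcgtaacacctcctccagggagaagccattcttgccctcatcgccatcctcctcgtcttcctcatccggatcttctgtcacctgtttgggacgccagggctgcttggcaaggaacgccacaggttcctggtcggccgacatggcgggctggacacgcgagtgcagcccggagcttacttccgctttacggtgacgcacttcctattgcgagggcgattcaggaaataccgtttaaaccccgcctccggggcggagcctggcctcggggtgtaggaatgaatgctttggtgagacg

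Shares of genes with each motif in a promoter were counted over all members. A RefSeq promoter was at hand for 72 of 89 members and for 16990 genes of the array. The NRF1 letters stood in 11 members (15.3%), against 2.81% of all genes with a promoter. The YY1 letters stood in 10 members (13.9%) against 3.64%, and the GABPA letters in 5 (6.94%) against 5.62%. In all, 24 of the 72 held at least 1 of the motifs, and Uqcr11 and Atp5j held more than 1 kind. Stretches of 3 uncalled members show the motifs in place, in capitals. They are Uqcrc1 (chr9:108936629-108936697, plus strand) for NRF1, Uqcrh (chr4:116075024-116075131, minus strand) for GABPA, read here on the opposite strand, and Ndufs4 (chr13:114388045-114388109, minus strand) for YY1.
Uqcrc1: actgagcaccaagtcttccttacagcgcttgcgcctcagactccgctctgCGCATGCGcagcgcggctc
Uqcrh: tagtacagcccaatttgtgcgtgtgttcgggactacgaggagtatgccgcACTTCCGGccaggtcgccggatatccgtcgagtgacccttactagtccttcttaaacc
Ndufs4: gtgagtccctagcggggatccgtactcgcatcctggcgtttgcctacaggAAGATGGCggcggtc

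Members with these motifs had changes close to 0. The 11 with the NRF1 letters ran from -0.12 to 0.13 with a median of 0.01, the 5 with the GABPA letters from -0.07 to 0.10 with a median of 0.02, and the 10 with the YY1 letters from -0.21 to 0.07 with a median of -0.05. None of them passed the test. A match of letters is a description of the promoter and does not show that the factor was bound.

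Complex II, succinate dehydrogenase, is the only complex that also belongs to the tricarboxylic acid (TCA) cycle and has no subunit from mitochondrial DNA. All 4 subunits had a lower mean after SAH, from -0.20 for the membrane anchor Sdhd to -0.02 for the iron-sulphur subunit Sdhb, and 0 passed the test. Sdha, the flavin subunit, had 7.82, 7.91, 7.83 and 7.74 on the SAH arrays and 7.81, 8.20, 7.88 and 8.14 on the sham arrays. The overlap came from 2 sham arrays that lay within the SAH range, and the change was -0.18 (95% interval -0.43 to 0.07). The shared sign rested on few arrays, since without SAH replicate 3 the subunits were split into 2 above and 2 below 0, with a median of -0.03 in place of -0.14.

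Complex III, which passes electrons from ubiquinol to cytochrome c, showed the opposite sign in all 7 subunits, with changes between 0.02 for Uqcr11 and 0.17 for Uqcrb. None of the 7 passed the test, and all 7 intervals lay within 1.5-fold. Uqcrc1, a core protein of the matrix side, had 7.96, 7.68, 7.38 and 7.78 on the SAH arrays and 7.67, 7.63, 7.37 and 7.69 on the sham arrays. The groups overlapped, and SAH replicates 1 and 4 lay above every sham array. The median deviation of the 7 subunits from their own means was 0.16 on SAH replicate 1 and -0.18 on SAH replicate 3, wider than the range from -0.15 to 0.0089 on the sham arrays. Without SAH replicate 1 the median change of the complex was 0.03 in place of 0.10.

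Complex IV, cytochrome c oxidase, reduces oxygen and has subunits that come in isoforms. Of the 10 subunits in general use, 9 had a higher mean after SAH (7 after cyclic loess between arrays), with a median of 0.09, and 0 passed the test. Without SAH replicate 4, 6 of the 10 were higher, and without SAH replicate 1 the median was 0.05 with 7 higher. Cox5b and Cox7a2 had the highest changes of the 10, 0.19 each (limma adjusted p = 0.658 and 0.455). Ndufa4, once assigned to complex I and now counted with complex IV, was the exception at -0.13. Cox6a1, among the brightest members, had 10.72, 10.54, 10.51 and 10.72 on the SAH arrays and 10.53, 10.84, 10.51 and 10.56 on the sham arrays, a change of 0.01.

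The 9 isoforms and paralogues of more restricted or special use are those that could mark a remodelled enzyme, and 0 passed the test. Cox4i1 and Cox4i2 encode the alternative forms of the subunit through which ATP slows the enzyme, and Cox4i2 is known to respond to oxygen. Cox4i2 had 5.54, 5.38, 5.30 and 5.62 on the SAH arrays and 5.30, 5.34, 4.90 and 5.40 on the sham arrays. The groups overlapped, and the changes were 0.23 for Cox4i2 (95% interval -0.06 to 0.51, limma adjusted p = 0.493) and 0.04 for Cox4i1 (95% interval -0.18 to 0.26).

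Ndufa4l2, a paralogue of Ndufa4 that hypoxia induces in other cells, had 6.96, 6.46, 7.08 and 7.43 on the SAH arrays and 6.54, 6.56, 6.96 and 7.12 on the sham arrays. Its lowest value was on a SAH array and its change was 0.19 (SE 0.201, limma adjusted p = 0.759). In mouse brain, Cox4i2 and Ndufa4l2 are known to be higher in pericytes than in endothelium. Of 12 pericyte and smooth muscle markers, 8 had a higher and 4 a lower mean after SAH. Their changes had a median of 0.126 and a lowest value of -0.405. The potassium channel gene Kcnj8 was the 1 that passed the test, with a rise of 0.96 (limma adjusted p = 0.0257). The summed intensity of the 12 was 6110 to 7400 on SAH and 5820 to 6570 on sham arrays. The part of pericytes in the levels of both genes was not tested.

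Cox6b2, known from testis, had the highest change of all members. Its intensities were 5.93, 5.42, 5.08 and 5.59 on the SAH arrays and 5.09, 5.09, 4.58 and 5.47 on the sham arrays. The SAH values of 5.08 and 5.42 fell within the sham range, and the change of 0.45 (95% interval -0.0053 to 0.90) had a limma adjusted p of 0.361. Its common counterpart Cox6b1 had 0.04.

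Cox7a1, the heart and muscle form of subunit 7a, had 4.21, 4.40, 4.61 and 4.86 on the SAH arrays and 4.84, 4.82, 4.88 and 4.93 on the sham arrays. The sham arrays lay close together and the SAH arrays spread below them, with SAH replicate 4 inside the sham range. The change was -0.35 (95% interval -0.65 to -0.05, limma adjusted p = 0.2498). Cox7a2l, a supercomplex factor that joins complexes III and IV, had -0.29 (limma adjusted p = 0.459), while Cox7a2 had 0.19. The muscle form Cox6a2 had -0.06. The isoforms Cox7b2, Cox8b and Cox8c had mean intensities of 2.25, 3.53 and 2.67, below the array medians, and changes of -0.13, 0.27 and -0.10.

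Complex V makes ATP by rotary catalysis. Of its 17 subunits, 8 had a higher and 9 a lower mean after SAH (10 and 7 after median centring, 6 and 11 after cyclic loess), with a median of -0.0015, and 0 passed the test. Leaving out sham replicate 2 gave 13 higher and 4 lower, and leaving out sham replicate 4 gave 11 and 6. The catalytic pair Atp5a1 and Atp5b had 0.12 each, with intervals of -0.12 to 0.35 and -0.10 to 0.34. Atp5b had 10.06, 9.83, 9.95 and 9.997 on the SAH arrays and 9.81, 9.96, 9.72 and 9.89 on the sham arrays, which overlap. Atp5mpl, a small membrane protein of the synthase, had 0.21 (limma adjusted p = 0.577). Of the 3 genes for the identical mature subunit c of the proton-driven rotor, Atp5g1 had -0.37 at an intensity below the array medians (limma adjusted p = 0.447), and Atp5g2 and Atp5g3 had -0.04 and -0.07. The bright members Atp5l and Atp5e had 0.04 and -0.13 (limma adjusted p = 0.914 and 0.728).

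Arrays of one group differed from each other by more than the groups did. The median deviation of all 89 members from their own means ran from -0.08 to 0.11 over the SAH arrays and from -0.08 to 0.08 over the sham arrays. SAH replicate 4 was the highest and SAH replicate 3 the lowest of the 8. The ranges of the groups overlapped for the members as a whole and for each complex, also for complexes II and III, whose subunits all had the same sign. Members on 1 array share its RNA, so the shared sign within a complex is a description of these 8 arrays.

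**Figure D4:**
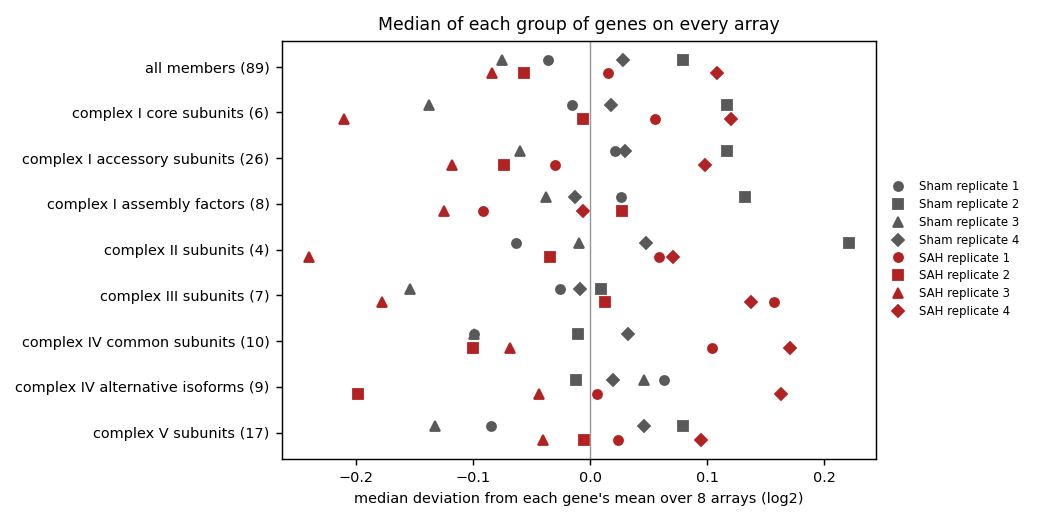
Median deviation of each group of OXPHOS genes from the genes' own means over 8 arrays (x axis, log2) on every sham array (grey) and SAH array (red), with the number of genes in brackets and the marker shape giving the replicate. The red and grey points overlap in every row, and SAH replicate 3 lies below SAH replicate 4 in every row.

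The subunits encoded in mitochondrial DNA do not fall under the name rule and were read from a separate list. The 10 genes measured were 7 subunits of complex I, cytochrome b of complex III, and COX1 and COX3 of complex IV. Their changes lay between -0.06 and 0.01, and 0 passed the test. All 10 intervals were within 1.5-fold, from -0.25 at the lowest to 0.25 at the highest. Of the 10, 7 had a lower mean after SAH, with a median of -0.01. After cyclic loess all 10 did (median -0.09), and without SAH replicate 2 the number was 2 (median 0.03). COX1, the catalytic subunit of complex IV, had 12.07, 11.90, 12.18 and 12.00 on the SAH arrays and 11.99, 12.00, 12.14 and 12.09 on the sham arrays. These probe sets lay between 11.2 and 12.4, near the top of a table that ends at 13.28, where an array may record less of a change. Whether it did was not tested.

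Regulators of mitochondrial biogenesis gave the only call among the other mitochondrial lists. Pprc1 encodes a coactivator of the PGC-1 family that acts with NRF1 and is known to be induced early by growth signals and stress. Its intensities were 6.58, 6.90, 6.63 and 6.39 on the SAH arrays and 5.90, 6.24, 5.52 and 5.69 on the sham arrays, with no overlap. SAH BECs had a mean of 6.63 ± 0.209 and sham BECs of 5.84 ± 0.310 (SD, n = 4 each). Pprc1 rose by 0.79 (SE 0.162, 95% interval 0.43 to 1.14, limma adjusted p = 0.0247), to 173% of its sham level. The rise passed the test in 2 of the 8 fits that left out an array (when SAH replicate 4 or sham replicate 2 was dropped), with changes of 0.68 to 0.92 and limma adjusted p-values of 0.012 to 0.0676 over the 8 fits. Its relatives Ppargc1a and Ppargc1b had mean changes of -0.19 and -0.14 at intensities below the array medians. Nrf1, Gabpa and Tfam, which encodes the packaging factor of mitochondrial DNA, had 0.11, -0.03 and -0.03. Larger negative changes did not pass the test. Polg2 had -0.83, Tfb1m -0.59 and Mterf2 -0.48 (limma adjusted p = 0.315, 0.2498 and 0.142), and the groups did not overlap for Mterf2. In the list, 12 had a higher and 14 a lower mean after SAH. Of 26 regulators, 1 rose, where 1.90% of all tested probe sets did, and 0 fell, where 1.28% did.

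While 3.18% of all tested probe sets were called, the remaining lists held 0 calls in either direction. They were 18 electron carriers and enzymes of ubiquinone synthesis (median change -0.07), 40 assembly factors outside the name rule (-0.15), 25 genes of the TCA cycle and pyruvate dehydrogenase (0.0084), 16 carriers, uncoupling proteins and porins (-0.09) and 49 proteins of the mitochondrial ribosome (0.0012). Among the 40 assembly factors 30 had a lower mean after SAH, while 53.6% of all tested probe sets did. The lowest was Coa7, a factor for complex IV, with -0.67 (95% interval -1.07 to -0.27, limma adjusted p = 0.0856). Its intensities of 4.58, 5.29, 4.66 and 5.10 on the SAH arrays overlapped the sham values of 5.93, 5.58, 5.24 and 5.56.

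A few carriers and switches, named after their values were seen, had groups apart or near it without passing the test. Cycs, the somatic cytochrome c, had a change of 0.37 (limma adjusted p = 0.129), and Gpd2, which feeds electrons from cytosolic glycerol phosphate to ubiquinone, had -0.35 (adjusted p = 0.0969). The pyruvate dehydrogenase kinases, which hold pyruvate back from the mitochondrion's main route, had opposite signs, 0.65 for Pdk4 and -0.53 for Pdk2 (limma adjusted p = 0.129 and 0.146). Slc25a4 and Slc25a5, the exchangers of ADP for ATP, had -0.29 and 0.26 (limma adjusted p = 0.372 and 0.287).

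**Figure D5:**
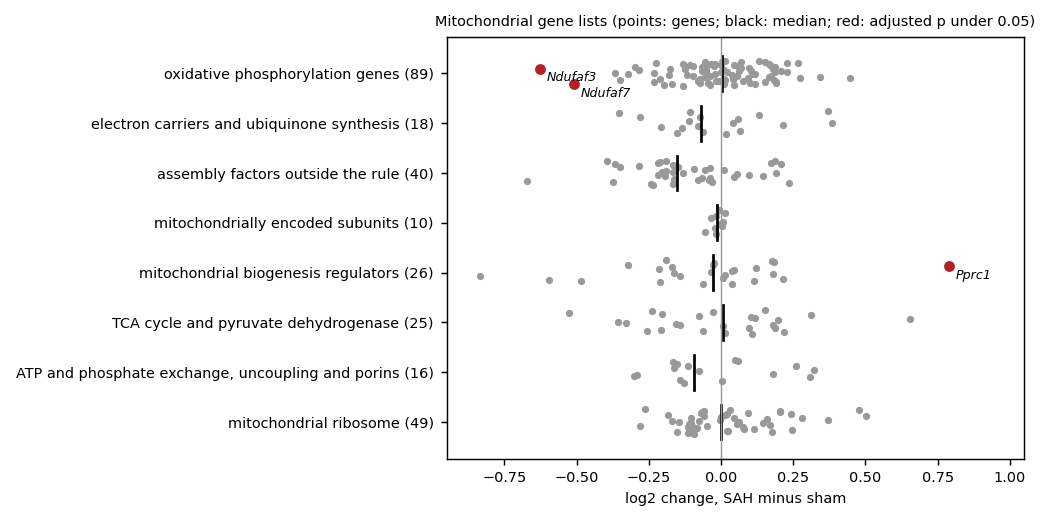
Log2 change (SAH minus sham, x axis) of every gene in the OXPHOS set and in 7 other mitochondrial lists, with the number of genes in brackets, a black line for each list's median and red for limma adjusted p under 0.05. Red points are Ndufaf3, Ndufaf7 and Pprc1, and the mitochondrially encoded subunits are the most tightly grouped around 0.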

How the data were processed

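RNA of 8 animals was amplified, and the authors summarised the arrays by RMA (robust multi-array average), naming oligo and R 3.2.2 in their processing notes. What they deposited, log2 intensities of 41345 probe sets with array medians of 4.23 to 4.30, was used as given. The 25341 probe sets to which the platform annotation gives a gene symbol entered a fit by limma 3.58.1 (R 4.3.3) without covariates, and p-values adjusted by Benjamini-Hochberg passed when under 0.05. The fit was tested on simulated data. Quantile normalization in RMA removes any shift shared by most genes, so changes are relative to the array.

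The members and the gene lists were chosen with earlier results of these data known. Genes named are those past the threshold, the 10 highest and 10 lowest changes, isoform pairs, the 3 brightest members and list genes past the threshold. Others were chosen after their values were seen. Alternatives were other normalizations, tests, filters, probe set choices and blocks, and leaving out each array. The number of arrays limits the precision.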

Additional observations from a re-analysis of the deposited data

Results flagged for a closer look

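In 3 of the 84 groups of 4 arrays examined, 1 array stood apart from the others by Dixon's test at the 95% level, which chance does in about 1 in 20 groups. Cox8b, the heart and muscle form of subunit 8 of complex IV, had 4.59 on SAH replicate 4, with the other SAH arrays at 3.27 to 3.47. Cox8b also had 3.03 on sham replicate 2, with the other sham arrays at 3.496 to 3.54, all of them below the array medians. Cox6a1 had 10.84 on sham replicate 2, with the other sham arrays at 10.51 to 10.56.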

How the results depend on the processing

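The count of members that fell was 2 with limma and under median centring, cyclic loess, trend and robust fitting, array weights, removal of dim probe sets and the mean of probe sets. It was 0 by the methods' t-test, 0 with all 41345 probe sets tested, 1 with 16 added to each linear intensity (Ndufaf7) and 0 to 2 when an array was left out. The methods describe processing of typically a SAH and a sham sample on the same day, but not which arrays shared a day. Deviations of same-numbered arrays correlated by -0.0622 to 0.0325, which cannot show whether they were processed together. With the replicate block the count was 1 (Ndufaf3), and with the label number as a replicate block it was 0. In all of these fits 0 members rose, and the changes of Ndufaf3 and Ndufaf7 stayed below 0. The median change over the members lay between -0.03 and 0.04 in the 19 alternatives. Uncalled values near 0 changed sign. After cyclic loess, Cox4i1 had -0.000586, Cox6a1 -0.0467 and Atp5l -0.025. With an array left out, Cox6a1 ran from -0.0228 to 0.0878, Cox6a2 from -0.139 to 0.059, Cox8b from -0.0416 to 0.398, Cox4i1 from -0.00353 to 0.0947 and Cox6b1 from -0.0219 to 0.0931. Cox8b fell below 0 without SAH replicate 4. Pprc1 missed the threshold by the methods' t-test, with all probe sets tested and with the label number block, at limma or t-test adjusted p-values of up to 0.163. Outside the name rule, Cycs (mean of probe sets), Gpd2 (16 added), Polg2 (label number block), Coa7 (without SAH replicate 2) and Pdk4 (without SAH replicate 4) each passed the test under 1 alternative. The cause of these changes was not tested. Why the test that the methods name called fewer probe sets here than the paper reports genes was not tested either. Whole-table counts of calls also moved, from 482 higher and 325 lower with limma to 50 and 36 by the methods' t-test, 236 and 117 with all probe sets tested, 162 and 113 with the label number block, and a total of 471 to 684 with an array left out.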

Other observations

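The probe set shared by Uqcrb and Gm10767 had a change of 0.77 and, with an SD of 0.78, an uneven SAH group, while the probe set of Uqcrb alone had 0.17. It did not pass the test and cannot be assigned to either gene. The annotated pseudogenes Atp5c1-ps and Uqcrh-ps1 had changes of 0.01 and 0.17, beside -0.04 for Atp5c1 and 0.10 for Uqcrh. They were counted among the members because their symbols meet the name rule, and leaving them out gave a median change of -0.0014 over 87 genes. Signals of pseudogene and parent cannot be told apart on probes that match both, and how many do was not tested.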
